A study of Mus musculus with 4 samples.

Results

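Tumor necrosis factor (TNF) and the lymphotoxins are a small family of cytokines of the TNF superfamily, and 7 of their ligand and receptor genes were followed here among the 31054 features of the count matrices. They are Tnf, Lta, Ltb and Tnfsf14, which encode ligands, and Tnfrsf1a, Tnfrsf1b and Ltbr, which encode receptors. The members were chosen by name, as the rows whose gene symbol equals 1 of these 7, and each symbol was found once. The cells came from the stromal vascular fraction (SVF, what remains of fat once the adipocytes are removed) of gonadal white adipose tissue (gWAT) of aged male mice, 18 months old. All 4 groups carried the same alleles, a tamoxifen-activated Cre recombinase driven by the p16 promoter (p16-CreERT2) and a tdTomato reporter in the Rosa26 locus that Cre switches on (R26-LSL-tdTomato), and all received tamoxifen. Tomato-positive (Tom+) cells are therefore those in which the p16 promoter was active when tamoxifen was given, or their progeny, and stand for p16high cells, and Tom- cells stand for p16low cells. By their labels the 4 libraries hold CD45- cells sorted as Tom+ or Tom- (here the CD45- pair) and CD45+ cells sorted the same way (the CD45+ pair), where CD45 is the surface protein of leukocytes. Each group is 1 library and the number of mice behind it is not given, so no test between groups was possible and no p-value is given.

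TNF is made as a membrane-bound trimer that the protease ADAM17 cuts free, and it binds TNFR1 (Tnfrsf1a), which most cell types carry, and TNFR2 (Tnfrsf1b), which is best known from leukocytes and endothelium. Lymphotoxin-alpha (Lta) binds the same receptors as a secreted homotrimer, or joins lymphotoxin-beta (Ltb) in a membrane-bound complex that binds the lymphotoxin-beta receptor (Ltbr). LIGHT (Tnfsf14) also binds the lymphotoxin-beta receptor. The receptors act through TRAF adaptors and NF-kB, and in adipose tissue TNF is known as a macrophage product that counters insulin action and adipogenesis, while lymphotoxin is known for organising lymphoid tissue.

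After filtering, 13878 cells were kept. Where 4 values are given below they follow the order CD45- Tom+, then CD45- Tom-, then CD45+ Tom+, then CD45+ Tom-, and where values are given for the Tom+ or the Tom- libraries alone, the one labelled CD45- comes first. The 4 libraries kept 3886, 3674, 1927 and 4391 cells, and the median UMI count per kept cell was between 18331 and 19502 in the 4 libraries. A UMI is a molecular tag that stands for 1 captured transcript. Leukocyte-like cells made up 71.2%, 37.9%, 68.6% and 43.0% of the kept cells, so that both CD45 labels held leukocytes and stromal cells, and the labels are used below as names only. The Tom labels went with tdTomato, at 713 and 715 CPM (UMIs of the gene per 1000000 UMIs of the cells summed) in the Tom+ libraries and at no more than 18.8 CPM in the Tom- libraries, whereas Cdkn2a, the gene of p16, was at 6.81 to 7.64 CPM in all 4. Pairs of libraries shared between 26 and 4394 barcodes, with a median 15.1 to 94.0-fold difference in UMIs between the copies, and at most 14 barcodes were kept in both libraries of a pair. Every level and ratio given below for its main classes moved by less than its counting interval when such cells were left out. Cells were grouped into 29 clusters, 23 of which could be named from marker genes into 15 classes, and the members themselves took no part in the clustering.

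Members are described by class because the question for a ligand and its receptor is which cells make the one and which could receive it. The markers fitted the names of the classes that matter most here. The gamma-delta T cell-like class, pooled over libraries, had 1833 CPM of Trdc, the delta chain constant region, with 299 CPM of Il17a, 754 CPM of Cd163l1 and 64.6 CPM of Trac, the alpha chain constant region. With finer clustering (Leiden resolution 2) this class split largely by Tom label. The cluster led by Trdc and Il17a had 261, 2, 92 and 5 cells in the 4 libraries. The cluster led by Cxcr6 and Areg, with 6 group 2 innate lymphoid markers also raised, had 0, 59, 1 and 99 cells. Tom+ and Tom- values of this class thus come from largely different clusters. The T cell-like class had 521 CPM of Trac, 125 CPM of Cd4 and 205 CPM of Cd8b1. The mast-like class had 28254.5 CPM of Mcpt4 and 19450 CPM of Cpa3, both mast cell proteases, and also 726 CPM of Prss34 but only 12.1 CPM of Mcpt8, which are basophil markers. The neutrophil-like class had 34650 CPM of S100a8. APC-like cells (adipose progenitor cells) had 476 CPM of Pdgfra. Clusters 8, 13, 15 and 22 were not named. Cluster 8 was led by Cxcl5 and had 6 of 7 mesothelial markers and 6 of 8 APC markers raised. It had 460 CPM of Pdgfra, and also 159 CPM of Lrrn4 and 139 CPM of Krt19, against 565 and 607 CPM in mesothelial-like cells. Cluster 13 was led by Rbp7, Aqp7 and Gpihbp1, and cluster 15 held both Jchain at 19086 CPM and C1qa at 911 CPM, which mark plasma cells and macrophages.

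The genes lie in 2 tight groups and as 2 single loci in the mouse genome (mm10, GENCODE vM21). On chromosome 17, Ltb (chr17:35194439-35196320, plus strand), Tnf (chr17:35199381-35202007, minus strand) and Lta (chr17:35203165-35205351, minus strand) stand side by side with 3060 bases between Ltb and Tnf and 1157 bases between Tnf and Lta. Tnfsf14 lies elsewhere on that chromosome (chr17:57189492-57194177, minus strand). On chromosome 6, Ltbr (chr6:125306571-125313885, minus strand) and Tnfrsf1a (chr6:125349362-125362484, plus strand) lie 35476 bases apart with Scnn1a between them. Tnfrsf1b is alone on chromosome 4 (chr4:145213463-145246870, minus strand). No other measured gene overlaps a member.

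The sequence just upstream of the start site is shown for the 3 neighbouring ligand genes, since Tnf had its highest levels in other classes than Lta and Ltb, and for Tnfrsf1b, the receptor that varied most between macrophage clusters. The sequences are from RefSeq on GRCm38.p6 (mm10), read 5′ to 3′ on the strand of the gene and ending at the base before the annotated start. They cover chr17:35202008-35202257 for Tnf, chr17:35205352-35205601 for Lta, chr17:35194257-35194438 for Ltb, where only the part outside the GENCODE gene is shown, and chr4:145246871-145247120 for Tnfrsf1b. Capitals mark matches, on either strand, to the letters GGGNNNNNCC of a kappaB site, which NF-kB binds. They also mark a TATA box, which sets the start of many regulated genes and is spelled TATAAA. GC boxes, bound by Sp1 and spelled GGGCGG, are marked in capitals as well. AP-1 sites, spelled TGANTCA, were also searched and had no match in the sequences shown.
Tnf: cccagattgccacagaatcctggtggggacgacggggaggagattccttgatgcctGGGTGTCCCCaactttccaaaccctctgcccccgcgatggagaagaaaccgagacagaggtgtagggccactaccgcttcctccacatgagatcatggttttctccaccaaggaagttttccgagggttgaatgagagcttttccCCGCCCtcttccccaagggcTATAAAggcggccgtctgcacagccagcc
Lta: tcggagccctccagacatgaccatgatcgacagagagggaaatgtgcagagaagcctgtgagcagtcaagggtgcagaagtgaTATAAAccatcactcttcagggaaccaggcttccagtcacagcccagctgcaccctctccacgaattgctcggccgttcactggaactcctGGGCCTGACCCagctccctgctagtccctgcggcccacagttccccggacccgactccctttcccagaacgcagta
Ltb: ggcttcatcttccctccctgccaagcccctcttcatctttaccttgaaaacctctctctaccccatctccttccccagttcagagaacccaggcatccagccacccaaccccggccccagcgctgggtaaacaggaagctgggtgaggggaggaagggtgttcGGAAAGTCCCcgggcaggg
Tnfrsf1b: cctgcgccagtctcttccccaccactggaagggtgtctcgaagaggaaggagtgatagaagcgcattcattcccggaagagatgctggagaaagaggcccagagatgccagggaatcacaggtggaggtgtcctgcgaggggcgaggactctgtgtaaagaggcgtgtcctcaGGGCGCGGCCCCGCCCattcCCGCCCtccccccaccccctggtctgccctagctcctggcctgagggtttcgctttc
Within 250 bases upstream, Tnf had 1 kappaB match, 194 to 185 bases before the start, 1 GC box match and 1 TATA match 29 to 24 bases before it. Lta had 2 overlapping kappaB matches and a TATA match 167 to 162 bases before the start. Ltb had 4 kappaB matches, 1 in the part shown and 3 that overlap each other in the part not shown, and no TATA match. Tnfrsf1b had 3 kappaB matches, which overlap each other and a GC box match, and a further GC box match. The kappaB letters occur in 45.8% of 32851 mouse promoter windows of this length, the TATA letters in 12.4%, those of the GC box in 32.7% and those of AP-1 in 6.75%, and a match is no more than a match of letters.

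Tnf transcripts were most concentrated in mast-like and neutrophil-like cells, but most Tnf UMIs came from macrophage-like cells. All levels are CPM of the summed counts of a class in a library, with an exact Poisson 95% interval that covers counting error only, and are given for classes of at least 50 cells in a library unless a smaller number is stated. Mast-like cells had 283 CPM (263 to 304) of Tnf under the label CD45- Tom+ and 318 CPM (289 to 349) under CD45+ Tom+. In the Tom- libraries, with 38 and 47 mast-like cells, the values were 348 and 340 CPM. Neutrophil-like cells had 252 CPM (206 to 306) under the label CD45- Tom- and 466 CPM (411 to 527) under CD45+ Tom-, so that the 2 classes overlapped in their range over libraries.

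Macrophage-like cells had 64.5 CPM (61.1 to 68.0) of Tnf under the label CD45- Tom+ and 66.2 CPM (61.6 to 71.0) under CD45- Tom-. They had 78.9 CPM (73.4 to 84.7) under the label CD45+ Tom+ and 54.1 CPM (50.5 to 57.8) under CD45+ Tom-. These levels lay below every mast-like and neutrophil-like value and overlapped those of gamma-delta T cell-like cells, at 41.1, 41.5, 67.6 and 64.2 CPM in the 4 libraries. Cluster 15 followed at 26.4 to 35.0 CPM in the Tom+ libraries. Natural killer-like, conventional dendritic-like, monocyte-like, T cell-like and B cell-like cells and cluster 13 lay between 0 and 19.3 CPM with overlapping ranges.

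APC-like and mesothelial-like cells were low in Tnf, as were plasma cell-like cells at 0.855 to 1.29 CPM and cluster 8 at 0.719 to 1.34 CPM. APC-like cells had 4.92, 2.09, 1.90 and 1.30 CPM of Tnf in the 4 libraries, and mesothelial-like cells had 0.883 to 1.27 CPM. Leukocyte transcripts were also found in APC-like cells, with Ptprc (CD45) at 26.3, 12.0, 19.0 and 9.26 CPM and the macrophage gene C1qa at 60.5, 14.2, 20.9 and 12.3 CPM. The immunoglobulin gene Igkc was at 14022 and 16833 CPM in APC-like cells of the Tom+ libraries and at 695 and 1033 CPM in the Tom- libraries. The part of such transcripts in the Tnf level of APC-like cells was not tested.

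**Figure D1:**
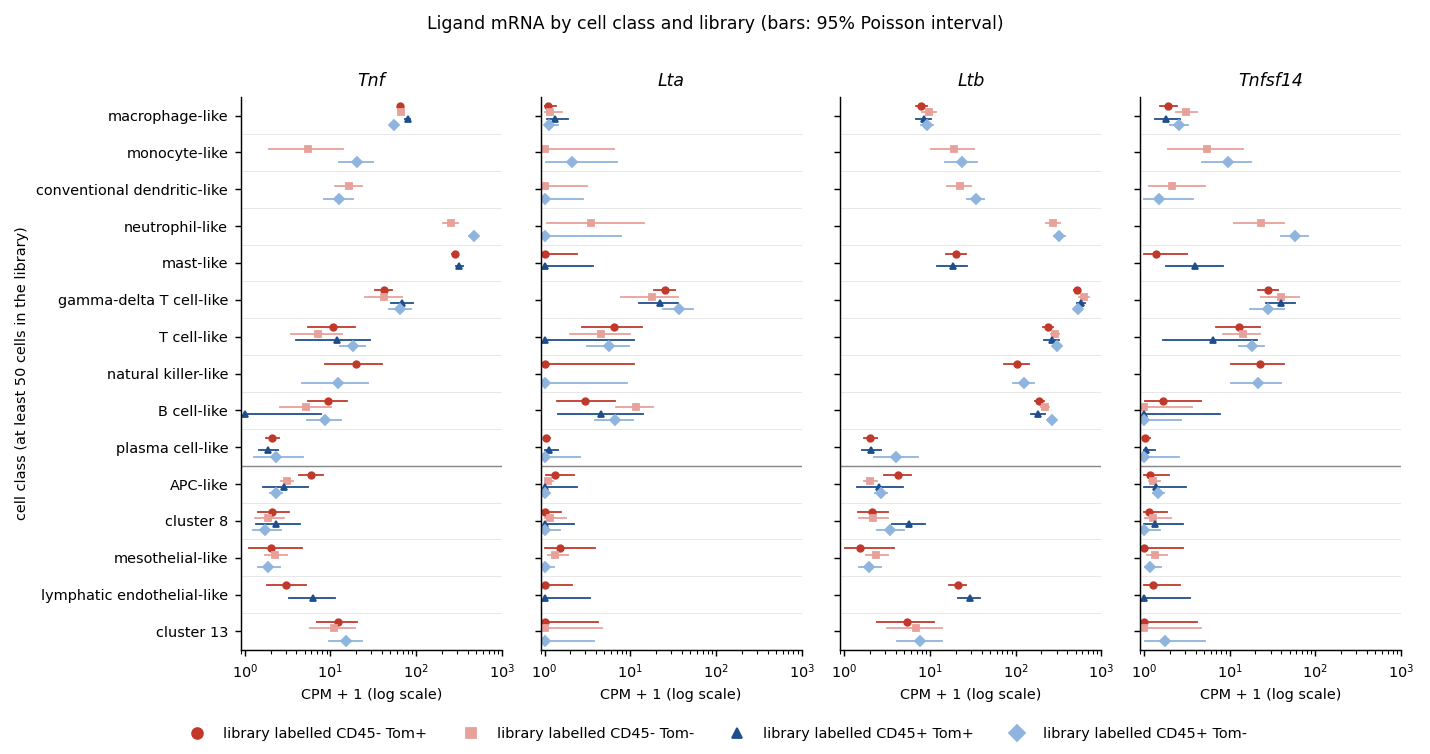
Levels of the ligand genes Tnf, Ltb, Lta and Tnfsf14 by cell class, plotted as CPM + 1 on a log axis with 1 marker for each of the 4 libraries and bars for the exact Poisson 95% interval. A line separates leukocyte from stromal classes; Tnf is highest in mast-like and neutrophil-like cells, and Ltb in gamma-delta T cell-like cells at 515 to 627 CPM.

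Macrophage-like cells stayed below both classes when single cells were compared at equal depth. A Tnf UMI was found in 65.7% and 73.4% of mast-like cells in the Tom+ libraries, and in 54.0%, 44.5%, 47.9% and 39.3% of macrophage-like cells in the 4 libraries. Mast-like cells were shallower, with medians of 6269 and 6759 UMIs a cell against 18645 to 22918 in macrophage-like cells. With each cell thinned to 2000 UMIs, 40.7% and 43.9% of mast-like cells kept a Tnf UMI, against 27.4% and 23.6% of neutrophil-like cells in the Tom- libraries and 8.92% to 13.4% of macrophage-like cells. In mesothelial-like cells, taken as a reference for the background, the thinned share was at most 0.505%.

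Tnf was also unevenly spread within a class. The 5% of macrophage-like cells with the most Tnf UMIs held 36.3%, 44.7%, 48.6% and 42.1% of the Tnf UMIs of the class in the 4 libraries, and single macrophage-like cells reached 31 to 68 UMIs. Among the neutrophil-like cells under the label CD45+ Tom-, the top 5% held 62.5%. In mast-like cells, 13.1% and 14.5% of cells had 5 or more Tnf UMIs, and the highest had 42.

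Ltb was highest in gamma-delta T cell-like cells. They had 515 CPM (483 to 548) under the label CD45- Tom+, 627 CPM (553 to 709) under CD45- Tom-, 582 CPM (525 to 642) under CD45+ Tom+ and 527 CPM (474 to 583) under CD45+ Tom-. Every one of these values lay above those of all other classes. Neutrophil-like cells (272 and 323 CPM in the Tom- libraries), T cell-like cells (235 to 301 CPM in the 4 libraries) and B cell-like cells (182 to 265 CPM) overlapped, and natural killer-like cells followed at 103 and 124 CPM. Macrophage-like cells had 6.92 to 8.77 CPM, APC-like cells up to 3.23 CPM and mesothelial-like cells 0.510 to 1.35 CPM.

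An Ltb UMI was found in 83.5% to 89.3% of gamma-delta T cell-like cells, and in 51.6% to 62.5% after thinning to 2000 UMIs a cell. The thinned share was 29.0% to 46.9% in T cell-like cells and 24.2% to 38.6% in B cell-like cells. In these 3 classes depth was alike, with medians of 5296 to 7571 UMIs a cell. Among gamma-delta T cell-like cells 31.0% to 41.1% had 5 or more Ltb UMIs, against 7.1% to 10.2% of T cell-like and 4.2% to 10.1% of B cell-like cells. Lymphatic endothelial-like cells had 20.1 and 28.1 CPM of Ltb in the Tom+ libraries, beside 20440 and 12030 CPM of Igkc in the same cells, and the part of leukocyte RNA in that level was not tested.

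Lta was sparse and had its highest level in gamma-delta T cell-like cells, with 46, 7, 14 and 25 UMIs or 24.5, 17.1, 21.0 and 35.7 CPM in the 4 libraries. B cell-like cells had 1.95, 10.6, 3.61 and 5.66 CPM from at most 15 UMIs, and T cell-like cells had 5.42, 3.53, 0 and 4.58 CPM, where the 0 has an upper bound of 10.0 CPM. Under the label CD45- Tom- the 15 UMIs of B cell-like cells outnumbered the 7 of gamma-delta T cell-like cells, which were fewer. The lowest gamma-delta T cell-like value lay above the highest of any other class. Mast-like, natural killer-like, lymphatic endothelial-like and conventional dendritic-like cells had 0 Lta UMIs in each library with at least 50 of their cells, with upper bounds of 1.07 to 9.97 CPM. Tnf, 1157 bases away from Lta on the same strand, had its highest levels in classes where Lta was at 0 to 2.45 CPM.

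Tnfsf14 was found in neutrophil-like, gamma-delta T cell-like, natural killer-like and T cell-like cells, again at low counts. Neutrophil-like cells had 22.1 and 57.1 CPM (9 and 31 UMIs) in the Tom- libraries. Gamma-delta T cell-like cells had 27.2, 39.1, 39.1 and 27.1 CPM in the 4 libraries, which overlapped the neutrophil-like range. Natural killer-like cells had 20.2 and 21.6 CPM and T cell-like cells 5.43 to 17.3 CPM. B cell-like cells, which had Ltb and Lta, had 1 Tnfsf14 UMI in the 4 libraries together, and no other class passed 8.59 CPM.

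Tnfrsf1a, the gene of TNFR1, was broad among stromal and myeloid cells and mostly lower in lymphocytes. APC-like cells had 200 CPM (189 to 212), 211 CPM (206 to 216), 188 CPM (172 to 205) and 213 CPM (209 to 218) in the 4 libraries. A UMI was found in 91.3% to 94.8% of APC-like cells, and in 31.2% to 34.0% after thinning to 2000 UMIs. Set in order, each of the 4 libraries had an interval that overlapped that of the next. The intervals of CD45+ Tom+ and CD45+ Tom- did not overlap each other.

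Neutrophil-like cells lay above APC-like cells, at 232 and 265 CPM of Tnfrsf1a in the Tom- libraries. Monocyte-like cells (180 and 185 CPM), cluster 13 (174 to 198 CPM) and cluster 8 (129 to 175 CPM) came next with overlapping ranges, followed by mesothelial-like cells at 130 to 141 CPM. Macrophage-like cells were at 95.6, 95.1, 94.3 and 98.8 CPM, a narrow range over the 4 libraries. Gamma-delta T cell-like cells had up to 68.4 CPM, T cell-like cells 20.4 to 33.5 CPM and B cell-like cells 5.85 to 7.74 CPM. Mast-like cells, among the highest in Tnf, had 12 and 2 Tnfrsf1a UMIs in the Tom+ libraries, or 4.60 and 1.45 CPM, below every other class. Plasma cell-like cells had 5.15 to 5.68 CPM, in cells whose UMIs were 47.0% to 54.4% immunoglobulin, which lowers the CPM of their other genes. Even so 17.5% to 17.7% of them had a Tnfrsf1a UMI at medians of 38780 to 39474 UMIs a cell, a share that fell to 0 to 1.26% after thinning.

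Within the APC-like class Tnfrsf1a differed between clusters more than between libraries. Among clusters with at least 50 cells in a library, cluster 5 (led by Fgf10) had 231 to 240 CPM, cluster 3 (Ptx3) 218 to 237 CPM and cluster 1 (Inmt) 175 to 206 CPM. Cluster 14 (Thbs4) had 162 and 170 CPM and cluster 21 (Adamts16, with Pi16 among its leading genes) 118 and 126 CPM, both in the Tom- libraries. Tnfrsf1b took another order, with 42.0 and 52.5 CPM in cluster 21 and 22.7 to 26.6 CPM in cluster 1.

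**Figure D2:**
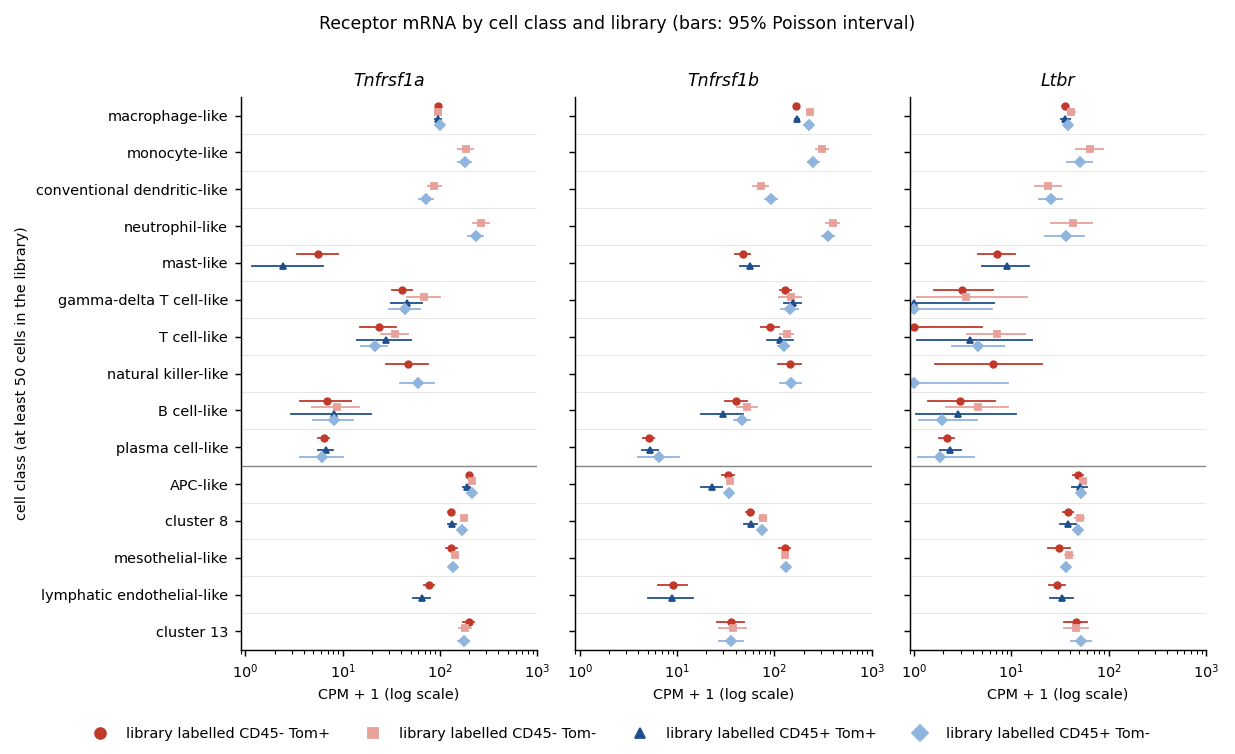
Levels of the receptor genes Tnfrsf1a, Tnfrsf1b and Ltbr by cell class, plotted as CPM + 1 on a log axis with 1 marker for each of the 4 libraries and bars for the exact Poisson 95% interval. A line separates leukocyte from stromal classes; APC-like cells reach 188 to 213 CPM of Tnfrsf1a, while Ltbr is at most 6.18 CPM in T cell-like cells and 47.5 to 53.9 CPM in APC-like cells.

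Tnfrsf1b, the gene of TNFR2, was highest in myeloid cells. Neutrophil-like cells had 356 and 397 CPM and monocyte-like cells 250 and 308 CPM in the Tom- libraries, with no overlap between the classes. Macrophage-like cells followed with 165 CPM (160 to 171) under the label CD45- Tom+, 231 CPM (222 to 240) under CD45- Tom-, 169 CPM (161 to 177) under CD45+ Tom+ and 227 CPM (220 to 235) under CD45+ Tom-. The intervals of the Tom+ and Tom- libraries did not overlap in this class.

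Gamma-delta T cell-like (129 to 153 CPM) and natural killer-like cells (143 and 146 CPM) lay below macrophage-like cells and overlapped each other in Tnfrsf1b. Mesothelial-like cells, which line the surface of gonadal fat, had 126 to 130 CPM, overlapping T cell-like cells at 89.9 to 133 CPM. A UMI was found in 89.2% to 90.2% of mesothelial-like cells, and in 21.2% to 23.3% after thinning. Mesothelial-like cells thus had both TNF receptor genes. APC-like cells had 32.8, 34.3, 21.7 and 33.3 CPM of Tnfrsf1b in the 4 libraries. Mast-like cells had 46.4 and 55.1 CPM of Tnfrsf1b, in contrast to their near absence of Tnfrsf1a UMIs. Lymphatic endothelial-like cells had 7.84 and 8.14 CPM, and plasma cell-like cells 4.10 to 5.58 CPM.

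Ltbr was highest in monocyte-like and APC-like cells and low in lymphocytes. Monocyte-like cells had 49.4 and 63.0 CPM and APC-like cells 47.5, 53.9, 49.1 and 51.2 CPM, with overlapping ranges, and clusters 13 and 8, neutrophil-like, macrophage-like, mesothelial-like and lymphatic endothelial-like cells followed one after the other from 50.8 down to 28.5 CPM, each overlapping the class before it. A UMI was found in 60.0% to 65.1% of APC-like cells, and in 7.62% to 10.3% after thinning, against 0.115% to 1.61% in plasma cell-like cells. Of the classes with the most Ltb, the lymphocytes had little or no Ltbr, whereas neutrophil-like cells had both genes, with Ltbr at 41.7 and 35.0 CPM in the Tom- libraries. Gamma-delta T cell-like cells had 4 and 1 UMIs in the libraries labelled CD45- and 0 in those labelled CD45+, where the upper bounds are 5.54 and 5.26 CPM. T cell-like cells had 0 to 6.18 CPM and B cell-like cells at most 3.52 CPM. Over the 49 points of class and library, which share libraries and depth, log2(CPM + 1) of Ltb and Ltbr had a Pearson r of -0.60.

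Weighted by the number of cells, each transcript had a few sources. Macrophage-like cells held 51.0%, 68.2%, 52.3% and 59.5% of the Tnf UMIs of the kept cells in the 4 libraries, from 21.3%, 16.1%, 22.1% and 17.4% of the cells. Mast-like cells held 28.2% and 29.9% of the Tnf UMIs in the Tom+ libraries, where they were 9.2% and 9.0% of the cells, and 8.25% and 6.93% in the Tom- libraries. Neutrophil-like cells held 8.9% and 17.4% in the Tom- libraries. The source of Tnf next to macrophages thus differed in cell number between the libraries, while mast-like levels lay between 283 and 348 CPM in all 4.

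Gamma-delta T cell-like cells held 49.9% and 46.9% of the Ltb UMIs in the Tom+ libraries from 6.7% and 4.8% of the cells, and 20.1% and 17.6% in the Tom- libraries, from 1.5% and 2.0% of the cells. In the Tom- libraries T cell-like cells held 25.7% and 28.3% and B cell-like cells 24.6% and 26.8%. Gamma-delta T cell-like cells also held 75.4%, 18.9%, 66.7% and 50.0% of the Lta UMIs. For the receptors, APC-like cells held 61.1% and 63.1% of the Tnfrsf1a UMIs in the Tom- libraries and 19.7% and 17.2% in the Tom+ libraries, where macrophage-like cells held 32.9% and 32.0%. Macrophage-like cells held 61.0% and 61.3% of the Tnfrsf1b UMIs in the Tom+ libraries and 40.1% and 43.5% in the Tom- libraries. Ltbr UMIs split like those of Tnfrsf1a, with 56.7% and 57.8% in APC-like cells of the Tom- libraries and 16.1% and 14.9% in those of the Tom+ libraries. Such a share depends on the number of cells of a class in a library as well as on the level per cell.

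**Figure D3:**
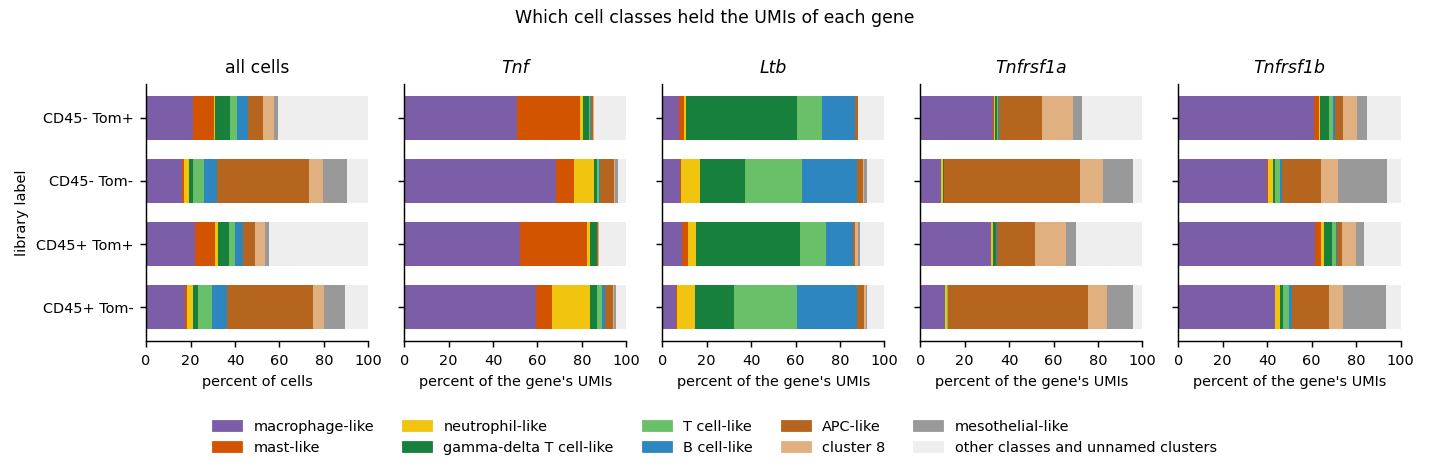
Stacked bars of the percent of kept cells and of the UMIs of Tnf, Ltb, Tnfrsf1a and Tnfrsf1b by cell class in each of the 4 libraries, each bar summing to 100 percent. Macrophage-like cells take 51.0% to 68.2% of Tnf, and APC-like cells take 61.1% and 63.1% of Tnfrsf1a in the Tom- libraries against 19.7% and 17.2% in the Tom+ libraries.

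Macrophage-like cells, with the most Tnf UMIs, also had both TNF receptor genes. Of macrophage-like cells with a Tnf UMI, 93.0%, 95.1%, 92.6% and 94.0% also had a Tnfrsf1b UMI in the 4 libraries, against 89.2%, 88.8%, 87.8% and 91.4% of those without one. Cells with a Tnf UMI were also deeper, with medians of 20798 to 24442 UMIs against 15977 to 22143, and the part of depth in that gap was not tested.

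The level of Tnfrsf1b set the macrophage clusters apart. Cluster 7, led by F10 and Cx3cr1, had 281, 330, 295 and 327 CPM in the 4 libraries. Cluster 10, led by Marco and Vsig4, had 206, 204, 197 and 218 CPM. Cluster 2, led by Ms4a7 and with Gpnmb among its leading genes, had 136, 157, 144 and 146 CPM. The 3 clusters did not overlap over the libraries, and the order was the same in all 4.

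The mix of these clusters differed between Tom+ and Tom- libraries. Cluster 2 made up 57.3% and 52.1% of macrophage-like cells in the Tom+ libraries and 35.6% and 34.3% in the Tom- libraries, whereas cluster 7 made up 12.6% and 12.4% in the Tom+ and 43.5% and 42.5% in the Tom- libraries. Cluster 10 was 20.6% to 27.9% in the 4 libraries. Tnf did not separate the clusters in this way: cluster 2 had 52.8, 56.8, 63.7 and 46.0 CPM, cluster 7 77.5, 73.9, 116 and 64.6 CPM and cluster 10 87.6, 68.7, 61.4 and 39.6 CPM. Tnf was higher in cluster 7 than in cluster 2 in each library, and cluster 10 changed its place in the order from library to library. Cluster 24, a small cluster led by Cd209f and Fcna, had Tnf at 122 and 245 CPM in 33 and 32 cells of the Tom+ libraries.

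**Figure D4:**
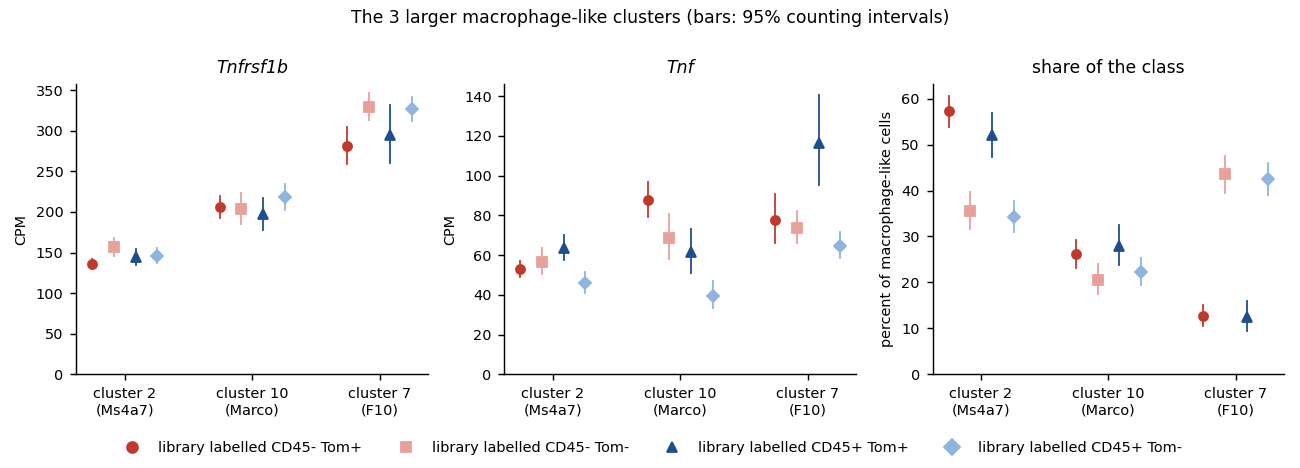
Tnfrsf1b and Tnf levels (CPM, with exact Poisson 95% intervals) and the percent of macrophage-like cells for clusters 2 (Ms4a7), 10 (Marco) and 7 (F10) in the 4 libraries. Tnfrsf1b rises from cluster 2 at 136 to 157 CPM over cluster 10 to cluster 7 at 281 to 330 CPM, and cluster 7 is 12.4% and 12.6% of the class in the Tom+ libraries against 42.5% and 43.5% in the Tom- libraries.

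The study asks how p16high cells differ from p16low cells of the same kind, so Tom+ was compared with Tom- within each class and CD45 label. Log2 ratios were taken for members averaging 10 CPM or more, in classes with at least 100 cells in both libraries, which gave 23 ratios, and a ratio was called when past 1.5-fold with an exact 95% interval that excluded 0. The class and label combinations that had enough cells were APC-like and macrophage-like cells under both labels, and T cell-like cells, B cell-like cells and cluster 8 under CD45-. Of the 23 ratios 1 was called. It was Tnfrsf1b in APC-like cells of the CD45+ pair, at 21.7 against 33.3 CPM and a log2 ratio of -0.62 (-1.03 to -0.24), from 57 UMIs in 105 Tom+ cells against 1411 UMIs in 1715 Tom- cells. In that comparison 3.63% of all genes tested were called. In the pair labelled CD45- the same ratio was -0.07 (-0.29 to 0.15), so the call was made in 1 of the 2 pairs. It fell short of 1.5-fold with a looser filter on cells (-0.49) and with scaling to a median ratio of 0 (-0.58), and its interval included 0 once cells were thinned to 2000 UMIs.

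Tnfrsf1b in macrophage-like cells was lower in the Tom+ libraries, short of 1.5-fold, with log2 ratios of -0.48 (-0.55 to -0.41) for CD45- and -0.43 (-0.51 to -0.34) for CD45+ labels. Of all genes tested in these cells, 5.24% and 6.16% were called. With the looser filter they were past it, at -0.78 and -0.72, and with both libraries of a pair set to 1 mix of macrophage clusters they were -0.17 and -0.09. Within cluster 2 they were -0.20 and -0.02, within cluster 7 -0.23 and -0.15, and within cluster 10 0.01 and -0.15. The difference was thus smaller within clusters than over the class.

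Tnf in macrophage-like cells did not move the same way in the 2 pairs. Its log2 ratio was -0.04 (-0.17 to 0.09) for CD45- labels, an interval that spans 0, and 0.55 (0.40 to 0.69) for CD45+ labels. Within clusters 2, 7 and 10 it was -0.10, 0.07 and 0.35 in the former pair and 0.47, 0.85 and 0.63 in the latter. The ratio of the CD45- pair was -0.43 with cells thinned to 2000 UMIs and 0.11 with each cell weighing the same, and that of the CD45+ pair was 0.22 with the looser filter. The difference between the pairs was not tested. Jun and Atf3, genes that tissue dissociation is known to induce, moved up in the same cells, with log2 ratios of 0.85 and 0.70 in the CD45- pair and 0.60 and 0.71 in the CD45+ pair. Hspa1b, a heat shock gene of the same list, was lower, at 11.4 against 22.8 CPM and 7.62 against 22.3 CPM, Ier2 had log2 ratios of -0.16 and -0.32, and the median of the 11 genes was 0.24 and 0.17. Their part in the Tnf values was not tested.

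Where they averaged 10 CPM or more, the genes of TNFR1 and the lymphotoxin-beta receptor stayed within 1.5-fold between Tom+ and Tom- cells. Tnfrsf1a had log2 ratios of -0.07 and -0.18 in APC-like cells and 0.01 and -0.07 in macrophage-like cells of the CD45- and CD45+ pairs. The value of 0.01 was -0.24 with the looser filter. The -0.18 had an interval below 0 (-0.32 to -0.05) but was 0.04 with cells thinned to 2000 UMIs. Ltbr had -0.18 and -0.06 in APC-like and -0.23 and -0.11 in macrophage-like cells. In T cell-like cells Ltb, Tnfsf14, Tnfrsf1a and Tnfrsf1b had -0.30, -0.15, -0.56 and -0.57, where 10.5% of all genes were called and the median of all genes was -0.13. With marked doublets kept, Tnfrsf1a in T cell-like cells was past 1.5-fold at -0.79 (-1.60 to -0.04), and at a minimum mean of 1 CPM Ltbr, with 0 against 7 UMIs, was called in them too. In B cell-like cells Ltb and Tnfrsf1b had -0.24 and -0.37, with 11.5% of genes called and a median of -0.18. In cluster 8 Tnfrsf1a, Tnfrsf1b and Ltbr had -0.44, -0.43 and -0.41, with 6.79% called and a median of -0.14, beside Igkc at 43576 against 551 CPM in the same cells. Relative to the median of all genes these values of cluster 8 were still all below 0 but nearer to it, while with cells thinned to 2000 UMIs Ltbr was at 0.29 (-0.55 to 1.13).

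**Figure D5:**
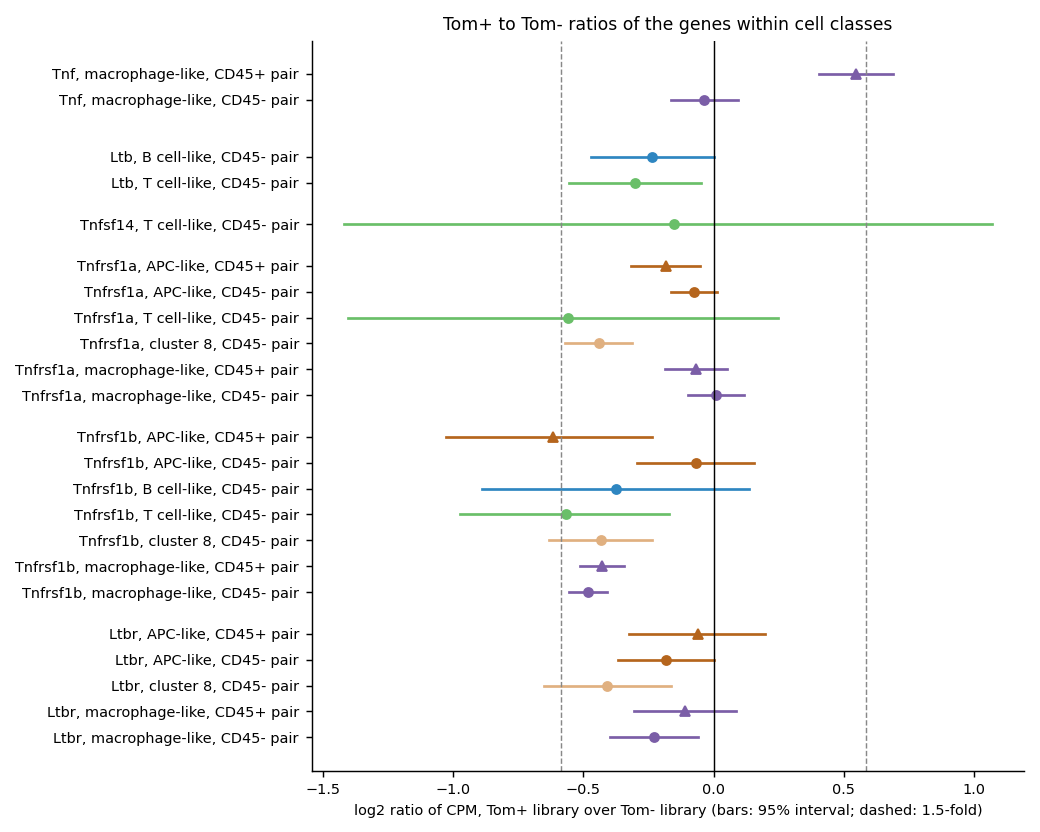
Log2 ratio of Tom+ to Tom- CPM for the 23 member and class combinations averaging 10 CPM or more, with exact 95% intervals, by CD45 label, and dashed lines at 1.5-fold either way. Tnfrsf1b in APC-like cells of the CD45+ pair is the 1 called value at -0.62, and Tnf in macrophage-like cells is at -0.04 and 0.55 in the 2 pairs.

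The pathway around these genes was followed through lists of related genes in macrophage-like and APC-like cells. Summed list levels were higher in some other classes. The lymphotoxin-beta receptor response list came to 1771 to 3418 CPM in cluster 8. It came to 538 to 596 CPM in APC-like and 169 to 176 CPM in macrophage-like cells. The TNF response list came to 17806 to 25987 CPM in mast-like and neutrophil-like cells and 12201 to 17852 CPM in cluster 8. It came to 5004 to 7363 CPM in APC-like and macrophage-like cells. Which genes made up the higher sums is not shown. Macrophage-like cells had genes of TNF shedding, with Adam17 at 126 to 150 CPM and its partner Rhbdf2 (iRhom2, which brings ADAM17 to the surface) at 34.3 to 36.8 CPM over the 4 libraries. Among 17 tested genes of the TNF response list, 3 were higher and 2 lower in Tom+ macrophage-like cells of the CD45- pair, and 3 were higher and 3 lower in the CD45+ pair, beside 5.24% and 6.16% of all genes called. The list medians were -0.08 and -0.01, beside -0.05 for all genes in either pair. Higher in both pairs were the monocyte chemokines Ccl2, at 302 against 127 CPM and 363 against 132 CPM, and Ccl7, at 166 against 65.5 CPM and 244 against 67.0 CPM. Lower in both were Ptgs2, the prostaglandin synthase COX-2, at 36.6 against 68.5 CPM and 41.1 against 63.9 CPM, and the cytokine Il6, with log2 ratios of -1.27 and -1.02. Sod2, the mitochondrial superoxide dismutase, had -0.51 and -0.62 and was called in the CD45+ pair. The list thus moved in both directions. The partner receptors, Tnfrsf14 (HVEM, a receptor of LIGHT), Btla and Cd160, were under 10 CPM in macrophage-like and APC-like cells and were not tested there, and Btla was at 63.1 to 103 CPM in B cell-like cells.

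The other lists held 0 to 3 calls each in macrophage-like cells, to be read beside the same 5.24% and 6.16% of all genes. Of 8 NF-kB subunits and inhibitors, 1 was lower in the CD45- pair (Nfkbie, an inhibitor of NF-kB, -0.65) and 0 in the other, with list medians of -0.23 and -0.22. Of the receptor-proximal signalling genes 1 of 18 was lower in the first pair (Traf3, -0.61) and 0 of 17 were called in the second, with medians of -0.19 and -0.21. Of 7 genes of Tnf mRNA decay, 0 were called in either pair, with Zfp36 (tristetraprolin) at 0.25 and 0.09 and Rc3h1 (Roquin-1) at -0.36 and -0.27. Of 3 tested shedding genes 0 were called in the first pair and 1 in the second, Adam10, at 220 against 337 CPM. Of 5 tested genes of the lymphotoxin-beta receptor response, 1 was higher in each pair. It was Cxcl13 with a log2 ratio of 1.53 in the first and Vcam1 at 27.4 against 16.3 CPM in the second. Vcam1 is in the TNF response list as well. Ccl19 and Ccl21a, also among the 13 genes of the lymphotoxin-beta receptor response list, gave no value in macrophage-like or APC-like cells. That list was thus read without them. Of 2 other TNF superfamily ligands 0 were called, and of 11 dissociation stress genes 2 were higher and 1 lower in both pairs.

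In APC-like cells, the chief holders of Tnfrsf1a and Ltbr UMIs in the Tom- libraries, 1 of 20 TNF response genes was higher in Tom+ cells of the CD45- pair, Cxcl2 at 159 against 94.0 CPM, beside 1.91% of all genes called. In the pair labelled CD45+, where 3.63% of all genes were called, 3 were lower, Ccl2 at 378 against 624 CPM, Ccl7 at 300 against 502 CPM and Ptgs2 at 333 against 553 CPM. In the pair labelled CD45- these 3 had log2 ratios of -0.34, -0.16 and -0.32. Cxcl13, a B cell chemokine under lymphotoxin control, was at 16.8 against 64.7 CPM in the CD45+ pair (log2 ratio -1.95), and at 62.5 against 76.8 CPM in the CD45- pair. Genes of the other lists were not called in APC-like cells in either pair. Nfkbia, the NF-kB inhibitor that NF-kB itself induces, had 0.18 and 0.28, and Birc3 (cIAP2) had -0.37 and -0.26. Cxcl2 and Ccl7 in APC-like cells and Il6 and Cxcl13 in macrophage-like cells fall outside the rule for named genes and were named after their values were seen.

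Some genes followed a member closely over the 49 points of class and library, given by the Pearson r of log2(CPM + 1) among 10724 genes as a description, since the points share libraries and depth. Tnf was followed best by Lpcat2 and Abr (both r = 0.84) and 1810011H11Rik (0.83), and Lta by Blk (0.91), a kinase of B cells and gamma-delta T cells, 5830411N06Rik (0.87) and Slc35f2 (0.85). Ltb was followed by Ripor2, Dennd1b and Gm26740 (all 0.93), and Tnfsf14 by Il18rap (0.93), an interleukin-18 receptor subunit, Dgat1 (0.90) and Nabp1 (0.87). Among the receptors, Tnfrsf1a was followed by Xdh (0.91), Cask (0.88) and Anxa2 (0.87), Tnfrsf1b by Prr13 (0.94), Arrb2 (0.90) and Myo9b (0.89), and Ltbr by Ifitm2, App and Sqor (all 0.92). Between members, r was 0.23 for Tnf and Lta, 0.49 for Tnf and Ltb, 0.74 for Lta and Ltb, 0.37 for Tnfrsf1a and Tnfrsf1b, and 0.76 for Tnfrsf1a and Ltbr. The neighbours Tnf and Lta on chromosome 17 were thus less alike over classes than Lta and Ltb.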

How the data were processed

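Tissue was digested with Liberase, red cells were lysed, and cells were stained with antibodies and sorted by flow cytometry, by their labels on CD45 and Tomato. The authors prepared 10x 3′ v3.1 libraries, sequenced them on a DNBSEQ-G400RS, ran Cell Ranger 3.0.2 against mm10 with a tdTomato row added, and deposited raw UMI counts (whole numbers, not normalized) for each library, 1 library per group. The study's Wilcoxon test over cells was not used, because cells of 1 library are not replicates.

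From the counts, barcodes were kept as in the study, with more than 1000 but fewer than 7000 genes and a mitochondrial share below 8%. Scrublet scores were taken per library (scanpy 1.11.5), and 0.8% of cells per 1000 barcodes with the highest scores were left out as doublets. Cells were clustered on 2000 variable genes, 30 components and 15 neighbours at Leiden resolution 1 (leidenalg 0.10.2), without members, list genes, immunoglobulin genes, mitochondrial genes or tdTomato. A cluster could be named when at least 3 markers of a class were raised (20 CPM and 4 times the median cluster). In the 6 unnamed clusters an unrelated class had nearly as large a share of its markers raised, or had markers among the leading genes. These thresholds were set after seeing the data. Counts were summed over the cells of a class and scaled to CPM, which for 3′ UMIs carries no length term. Levels were read across classes and libraries, and genes were not ranked against each other by level. Ratios used the conditional exact interval of a pair of Poisson counts, and shares of cells were also taken after thinning to 2000 UMIs. Named genes were the members, the 2 highest and 2 lowest genes of each list at 20 CPM or more with 1 sign in both pairs, and the 3 genes most like each member. The members and lists were chosen with earlier results of these data known. The ratio step was tested on simulated data with 200 changed genes: 96% of 2-fold and 93% of 3-fold changes were recovered among 7542 genes in macrophage-like cells of the CD45- pair, and 96% and 88% among 8161 genes in APC-like cells of the CD45+ pair. Of the unchanged genes, 0% were called in the former comparison and 0.664% in the latter. Why recovery was lower at 3-fold than at 2-fold was not tested. The simulated counts were independent Poisson draws, which is what the interval assumes. The simulation therefore cannot show how the ratios behave when UMIs are spread unevenly between cells. The alternatives were a looser filter, kept doublets, Leiden resolution 2, 4000 variable genes, thinning, equal weight per cell, 1 cluster mix, a median ratio of 0, a minimum of 1 CPM and leaving out cells kept in another library; leaving out cells with a larger copy of their barcode elsewhere was added after seeing the data. Scripts used Python 3.11.15, numpy 2.4.6, scipy 1.17.1 and pandas 2.3.3.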

Additional observations from a re-analysis of the deposited data

How the results depend on the processing

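No paired analysis was possible because each group is 1 library. The 3′ counts, the sort and the number of mice limit all values alike, and intervals cover counting error only, so differences between libraries cannot be told apart from differences between their mice. Over the values and alternatives run, 557 stayed within their interval or count limit and 106 moved. The moves were uneven between alternatives. The looser filter moved all 7 of the main values, and of the others it moved 32 and kept 38. Thinning kept 3 main values, and of the others it moved 31 and kept 30. Each of the 2 ways of leaving out shared barcodes kept 7 main and 77 other values. The 1 called ratio kept its sign, and 15 of 214 log2 ratios had the opposite sign, 10 of them within the reported interval. The other 5 were Tnfrsf1a in macrophage-like cells of the CD45- pair (-0.24, looser filter), Tnf in the same cells (0.11, each cell weighing the same) and, with cells thinned to 2000 UMIs, Tnfsf14 in T cell-like cells (1.28), Ltbr in cluster 8 (0.29) and Tnfrsf1a in APC-like cells of the CD45+ pair (0.04). With a looser filter (500 genes or more, mitochondrial share under 20%), macrophage-like cells held 58.6%, 59.4%, 59.8% and 56.6% of the Tnf UMIs in the 4 libraries, and the Tnfrsf1b log2 ratios in macrophage-like cells were -0.78 and -0.72 in the CD45- and CD45+ pairs, both past 1.5-fold. With the marked doublets kept, the Tnf shares were 48.0% in the library labelled CD45- Tom+ and 54.8% in that labelled CD45+ Tom-. With 1 mix of clusters the Tnfrsf1b ratios were -0.17 and -0.094. The count of members past 1.5-fold, 1 as reported, was 2 with that looser filter, where Tnfrsf1b in APC-like cells was not among them, 3 with doublets kept, which added Tnfrsf1a in T cell-like cells and Tnf in macrophage-like cells of the CD45+ pair (0.59), 2 with 4000 variable genes, and 6 at a minimum mean of 1 CPM, where the added genes had low counts. Thinning called Ltb in T cell-like cells (-0.66) in place of Tnfrsf1b, and a median ratio of 0 called Tnf in macrophage-like cells of the CD45+ pair (0.60) in its place. The share of all genes called is not given for these settings, so the counts cannot be set beside it. The cause of these changes in the calls was not tested. Leaving out cells whose barcode was kept in another library, or had a larger copy there, moved no value by more than its interval.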
